A study of Mus musculus with 6 samples.

Results

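The 31 genes described here encode the semaphorins, plexins and neuropilins of the mouse, 20 ligands and 11 receptors (9 plexins and 2 neuropilins). They were taken by name from a table of 56805 genes, all 31 were present, and all 31 passed the filter on low counts. The table holds RNA-seq counts from motor neurons at 2 levels of the embryonic mouse spinal cord, cervical and thoracic, at e12.5. By its title the series concerns the activity of Hox5 genes in motor neurons. Each region has 3 libraries, biological replicates by the series' design, and all 6 are labelled as motor neurons of control genotype without treatment, with strain, reporter and cell isolation not given in the sources used here. Whether 1 replicate stands for an embryo, a litter or a pool is not stated, so each p-value sets the region difference against the estimated spread between these samples.

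Semaphorins are guidance proteins that steer growing axons and migrating cells, mostly by repulsion. Class 3 members are secreted and, except for Sema3e, need a neuropilin to bind ligand while a class A plexin carries the signal into the cell. Sema3e binds Plxnd1 directly. Classes 4, 5 and 6 span the membrane, class 7 is held by a lipid anchor, class 4 members act mainly on B plexins and class 6 members on A plexins. In the spinal cord, motor axons read Sema3a through Nrp1 and Sema3f through Nrp2 as they enter the limb and choose a target, and many neurons also make semaphorins themselves.

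Library totals ran from 32103071 to 33790634 counts, and thoracic replicate 1 had 53186131. The 9 motor neuron markers checked (Mnx1, Isl1, Isl2, Lhx3, Lhx4, Chat, Slc18a3, Slc5a7 and Prph) were all detected and summed to 358 to 724 CPM in cervical and 448 to 669 CPM in thoracic libraries. CPM is a count-per-million value after TMM scaling, edgeR's correction for library composition. The 14 interneuron markers summed to 1723 to 1740 CPM in cervical and 1395 to 1526 CPM in thoracic libraries. The 9 progenitor genes summed to 950.1 to 1246 and 1151 to 1510 CPM, and the 5 floor plate genes to 233 to 474 and 422 to 572 CPM. The sums differ in gene number and have no length correction, so they do not rank the cell types by content. In such bulk samples, fewer cells of a type and less RNA per cell cannot be told apart.

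No semaphorin, plexin or neuropilin gene passed the edgeR test between regions with region as its single term. Sema3a passed, higher in cervical libraries, in edgeR with the replicate number as a block and in DESeq2 without it. In edgeR's quasi-likelihood test, 0 of 20 ligands and 0 of 11 receptors had a Benjamini-Hochberg adjusted p below 0.05 over 21972 genes, where 0.542% of all genes did (0.191% higher in cervical and 0.35% in thoracic). Limma-voom also called 0, beside 0.487% of all genes. DESeq2 called 1 (Sema3a, beside 2.49% of the 16432 genes to which it gave an adjusted p). At an unadjusted p below 0.05 there were 6 members (19.4%, against 8.47% of all tested genes and 9.52% of those with a mean of at least 1 CPM). Sema3a and Sema3e had higher values in cervical libraries, as did 3.27% of all genes at that threshold. Sema3c, Sema3d, Sema6a and Plxna4 had higher values in thoracic libraries, as did 5.19% of all genes. With the replicate number as a block, Sema3a was the 1 member called, beside 1.97% of all genes (0.573% higher in cervical and 1.39% in thoracic), and 11 members had an unadjusted p below 0.05, beside 10.7% of all genes. With no filter on low counts edgeR called 3 members, Sema3a, Sema3c and Plxna4, beside 1.91% of 39190 genes.

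For most members the 95% interval of the difference was narrow. In the edgeR fit without the block it lay within 1.5-fold in both directions for 25 of 31 members and within 2-fold for 29. Of 17086 tested genes with a mean of at least 1 CPM, 11204 lay within 1.5-fold and 15501 within 2-fold. The 6 members whose interval reached beyond 1.5-fold were Sema3b, Sema3c, Sema3d, Sema3e and Sema3g, all class 3 ligands, and the receptor Nrp1. Sema3d and Sema3e were the 2 that reached beyond 2-fold. With the block, the intervals of Sema3b (-0.54 to 0.19), Sema3c (-0.57 to -0.13) and Nrp1 (-0.37 to -0.04 on the log2 scale) lay within 1.5-fold, and that of Plxnb3 (-0.62 to 0.54) reached beyond it. The median size of the log2 fold change was 0.11 over the 31 members and 0.10 over the 17086 tested genes with a mean of at least 1 CPM, a level that every member reached. One member, Sema3d, had a point estimate of 1.5-fold or more. Of the 11 receptors 10 had a log2 fold change below 0, the thoracic side, with a median of -0.08, beside 10525 of all 21972 tested genes. Some of these lay close to 0, with Plxna1 at -0.03, Plxna3 at -0.02 and Plxnb1 at -0.00083. The signs of Plxna3, Plxnb1 and Plxnb3 turned in other settings. The 20 ligands had 12 below 0 and a median of -0.02, and the median of all tested genes was 0.01.

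**Figure D1:**
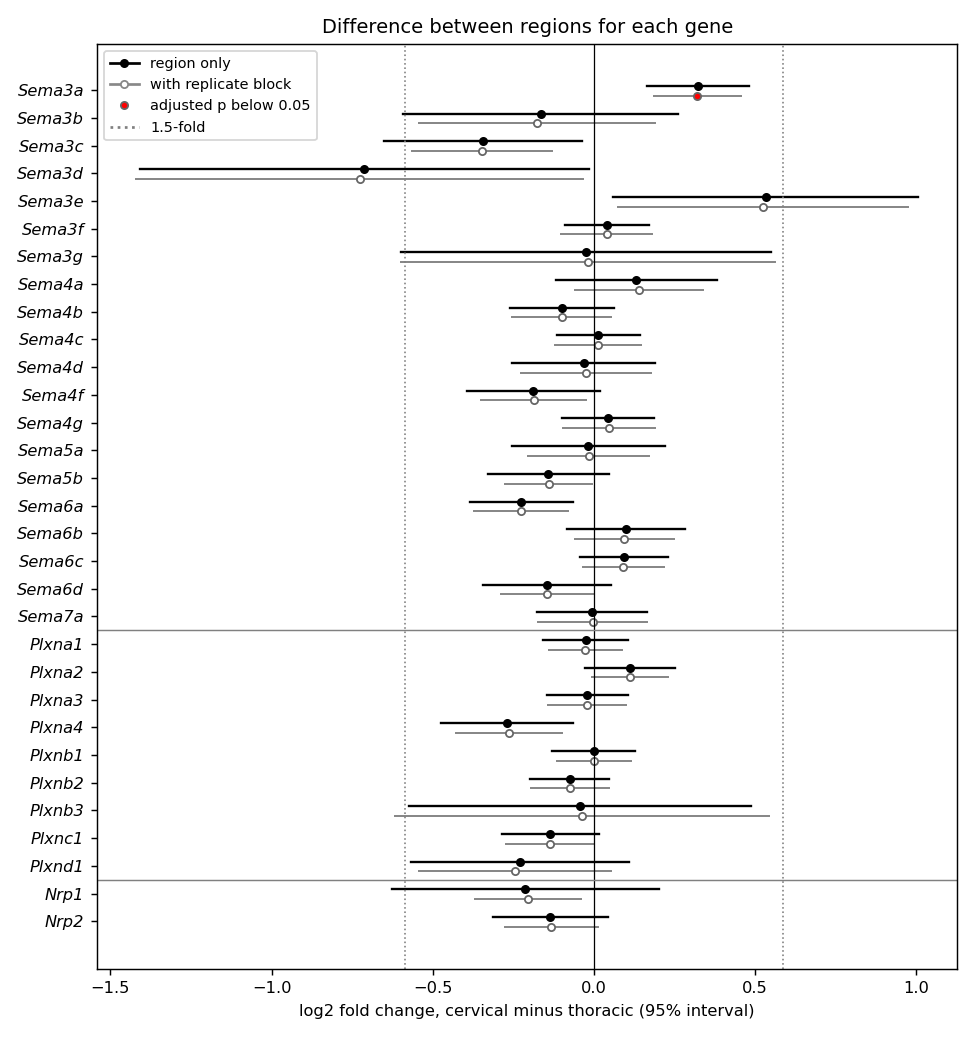
Log2 fold change of each gene, cervical minus thoracic (horizontal axis), with its 95% interval, for the model with region only (black) and with the replicate number as a block (grey); dotted lines mark 1.5-fold. Sema3a alone has a red point, which marks an adjusted p below 0.05 and appears in the blocked model, and the widest interval is that of Sema3d, -1.41 to -0.02.

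Levels were compared between genes as CPM per kilobase of the merged exon length in the table, which understates a gene that uses only part of its listed exons. On this scale the members spanned 224-fold, and 25 of 31 lay above the middle of all tested genes (2.71 CPM per kilobase). Receptors led the order. Plxna1 had the highest mean level, 63.0 ± 3.09 in cervical and 64.2 ± 1.51 CPM per kilobase in thoracic libraries (SD, n = 3 each). Nrp2 followed with 57.6 ± 3.22 and 63.2 ± 6.49, then Plxnb1 with 54.1 ± 0.941 and 54.1 ± 2.30. The next gene, and the highest ligand, was Sema6c, 52.3 ± 3.34 and 49.1 ± 0.867 CPM per kilobase. Plxna3, Plxnb2, Sema4c and Plxna2 came next, so that 6 of the 8 highest were receptors.

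Neighbours in this order mostly could not be told apart. The ranges over the 6 libraries overlapped for 26 of 30 adjacent pairs. The 4 clear steps lay below Plxnb2 (41.6 CPM per kilobase in its lowest library, with Sema4c next), below Sema3a, below Sema5a and below Sema3b. The last step separated a low group of 4 genes, Sema3g, Sema3e, Sema3d and Plxnb3, with mean levels of 0.402, 0.366, 0.316 and 0.283 CPM per kilobase.

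**Figure D2:**
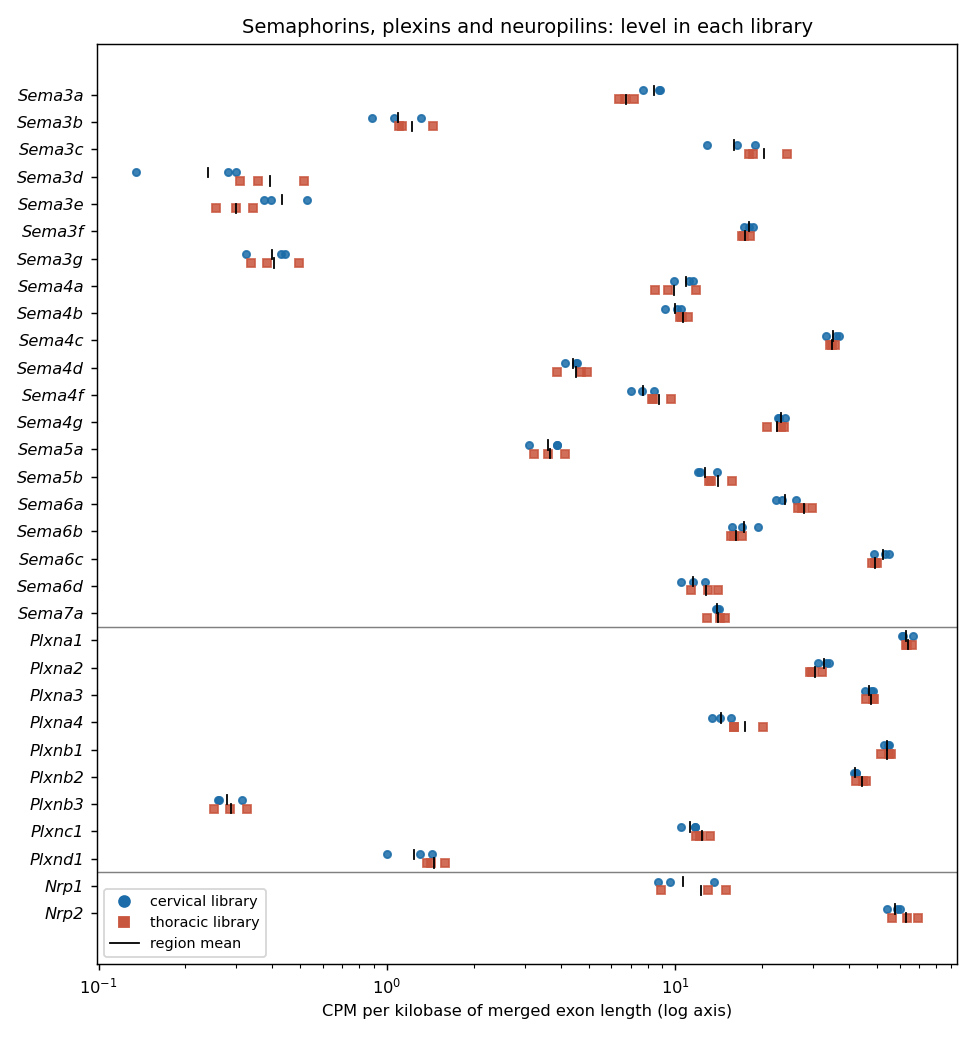
CPM per kilobase of merged exon length (log axis) of each gene in the 3 cervical (circles) and 3 thoracic (squares) libraries, with a tick at each region's mean; grey lines part ligands, plexins and neuropilins. Plxna1, Nrp2, Plxnb1 and Sema6c lie highest, and Sema3d, Sema3e, Sema3g and Plxnb3 lie lowest, below 1 CPM per kilobase.

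Among the ligands, classes 6 and 4 had higher summed levels than the secreted class 3, and classes 5 and 7 had lower ones. Class 6 summed to 105 ± 4.48 CPM per kilobase in cervical and 106 ± 1.51 in thoracic libraries over its 4 genes. Class 4 summed to 91.4 ± 2.07 and 91.3 ± 3.41 over 6 genes, and class 3 to 44.5 ± 3.01 and 46.8 ± 3.73 over 7. The lowest class 4 sum of any library, 87.6, stood above the highest class 3 sum, 51.0. The 2 class 5 genes summed to 16.3 ± 0.639 and 17.7 ± 1.48, and Sema7a stood at 14.0 ± 0.214 and 14.0 ± 1.02 CPM per kilobase. Within class 6, Sema6c took 44.8 to 50.7% of the sum, depending on the library. Within class 4, Sema4c took 37.3 to 39.8%.

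Sema3a, the secreted ligand that repels Nrp1-bearing axons, was the member with the smallest p. It stood at 106.8, 121.4 and 122.4 CPM in cervical replicates 1, 2 and 3, and at 88.5, 92.6 and 99.4 CPM in the thoracic replicates. Every cervical library was above every thoracic one. The difference was 1.25-fold (log2 fold change 0.32, SE 0.07, 95% interval 0.17 to 0.48), with an edgeR adjusted p = 0.104. With the replicate block the log2 fold change was 0.32 and the edgeR adjusted p = 0.0155. DESeq2 without the block called it (adjusted p = 0.0119) and limma-voom did not (adjusted p = 0.118). Leaving out each library in turn, the edgeR adjusted p ran from 0.0304, without cervical replicate 1 (1 member called, beside 0.701% of all genes), to 0.383, without cervical replicate 3. In the blocked model, with 2 libraries per region left, it was 0.00348 without replicate 1, 0.168 without replicate 2 and 0.0534 without replicate 3. The summed interneuron markers given above were also higher in each cervical than in each thoracic library, while of the 14 genes 2 were called toward cervical and 3 toward thoracic, and none was at 0. Their part in the Sema3a values was not tested.

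Sema3a lies in a group of class 3 genes on chromosome 5 (mm39). Sema3d spans 12433352 to 12638915, Sema3a 13175381 to 13652533, Sema3e 14075290 to 14306703 and Sema3c 17779279 to 17935266, all on the plus strand. The gaps between them are 536.5 kb, 422.8 kb and 3.47 Mb. Going along the chromosome, the log2 fold changes were -0.71, 0.32, 0.53 and -0.34, and none of the 4 passed the edgeR test without the block.

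Sema3e, the ligand of Plxnd1, was low, at 3.47, 3.67 and 4.91 CPM in the 3 cervical and 2.78, 2.36 and 3.18 CPM in the thoracic replicates. The regions did not overlap, but the difference did not pass (log2 fold change 0.53, SE 0.21, edgeR adjusted p = 0.506, blocked 0.344). Sema3d was lower still, at 2.42, 2.58 and 1.16 CPM in cervical and 2.65, 3.07 and 4.45 CPM in thoracic replicates. Its regions did not overlap either, and the gap between the highest cervical and the lowest thoracic library was small (log2 fold change -0.71, SE 0.32, edgeR adjusted p = 0.570). Most of that estimate came from replicate 3, where the log2 ratio was -1.94, against -0.13 and -0.25 in replicates 1 and 2.

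Sema3c, a secreted ligand that can attract as well as repel, had the highest mean level of class 3 per kilobase, 18.1, close to Sema3f with 17.7 CPM per kilobase. Sema3c stood at 134.4, 91.5 and 116.5 CPM in the cervical and 128.6, 132.5 and 173.6 CPM in the thoracic replicates. The regions overlapped, since cervical replicate 1 lay above thoracic replicates 1 and 2. The log2 fold change was -0.34 (SE 0.14, edgeR adjusted p = 0.510, blocked 0.123). The ratio of Sema3c to Sema3a on the CPM per kilobase scale was 1.46 to 2.44 in cervical and 2.78 to 3.39 in thoracic libraries. It restates the opposite directions of both genes, neither of which edgeR called without the block, and was not tested. Sema3f, the ligand read through Nrp2, was nearly level, at 96.3, 89.8 and 93.8 against 89.98, 93.9 and 88.4 CPM (log2 fold change 0.04, 95% interval -0.09 to 0.17). Sema3b, which lies 72.3 kb from Sema3f on chromosome 9, stood at 5.198 ± 1.02 and 5.85 ± 0.916 CPM, and Sema3g at 1.81 ± 0.297 and 1.84 ± 0.371 CPM. Their 95% intervals were wider, -0.59 to 0.26 for Sema3b and -0.60 to 0.55 for Sema3g on the log2 scale.

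Of the membrane-bound ligands, Sema6a came closest to a call. This class 6 member, which is also known to keep motor neuron cell bodies inside the spinal cord when boundary cap cells carry it, had 229.1, 195.8 and 204.8 CPM in the cervical replicates. In the thoracic replicates it stood at 234.1, 240.3 and 261.8 CPM, above all cervical libraries. The difference was 1.17-fold (log2 fold change -0.23, SE 0.07, edgeR adjusted p = 0.336, blocked 0.144). The other class 6 genes had smaller estimates. Sema6c stood at 310.6 ± 19.8 and 291.2 ± 5.15 CPM, Sema6b at 68.7 ± 7.15 and 64.2 ± 2.96 CPM, and Sema6d at 121.9 ± 11.6 and 134.9 ± 14.8 CPM. Their edgeR adjusted p were 0.794, 0.849 and 0.768, and each overlapped between regions.

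The 6 class 4 genes, whose receptors are mainly B plexins, had log2 fold changes between -0.19 (Sema4f) and 0.13 (Sema4a). Sema4f stood at 44.6, 37.1 and 40.5 CPM in cervical and 50.9, 44.0 and 44.2 CPM in thoracic replicates, lower in cervical within each replicate number (edgeR adjusted p = 0.654, blocked 0.352). Sema4c, the most abundant of them per kilobase, stood at 162.0 ± 8.51 and 160.5 ± 2.96 CPM, with a 95% interval of -0.11 to 0.14 for the log2 fold change. Sema4g stood at 201.0 ± 6.31 and 195.01 ± 14.0 CPM, with an interval of -0.10 to 0.19. Sema4b and Sema4d had log2 fold changes of -0.10 and -0.03. In class 5, which carries thrombospondin repeats, Sema5a had a log2 fold change of -0.02 and Sema5b one of -0.14. Sema7a, known also as an integrin ligand, stood at 45.5, 45.9 and 46.8 CPM in cervical and 47.0, 49.1 and 42.6 CPM in thoracic replicates, and its cervical SD of 0.707 CPM was 1.54% of the mean.

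Neuropilins bind the class 3 ligands and, as a second role, VEGF. Nrp2 outweighed Nrp1 in every library, by 3.77 to 7.13 times on the CPM per kilobase scale. Nrp2 stood at 712.3, 638.9 and 693.3 CPM in cervical and 669.5, 753.4 and 822.9 CPM in thoracic replicates, with overlap (log2 fold change -0.14, SE 0.08, edgeR adjusted p = 0.753). Nrp1 stood at 133.2, 84.9 and 93.4 CPM in cervical and 146.7, 87.3 and 126.8 CPM in thoracic replicates. Among the members with a mean above 10 CPM it varied most between replicates, by 24.8% of the mean in cervical and 25.1% in thoracic libraries. The estimate was -0.21 on the log2 scale (SE 0.19, edgeR adjusted p = 0.862, blocked 0.292). The libraries high in Nrp1 were cervical replicate 1 and thoracic replicates 1 and 3. The same 3 libraries had the highest motor neuron marker sums, 723.6, 669.4 and 616.7 CPM, against 357.9 and 501.1 CPM in cervical replicates 2 and 3 and 447.9 CPM in thoracic replicate 2. The part of motor neuron content in the Nrp1 values was not tested.

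The A plexins are the signalling partners of neuropilins and also bind class 6 ligands directly. Plxna4, which is linked to Sema3a and Sema6a responses, had the largest difference among receptors. It stood at 219.2, 189.1 and 200.9 CPM in the cervical and 225.7, 225.1 and 283.8 CPM in the thoracic replicates. The regions did not overlap, cervical replicate 1 lay close to thoracic replicates 1 and 2, and thoracic replicate 3 was the highest. The difference was 1.21-fold (log2 fold change -0.27, SE 0.09, edgeR adjusted p = 0.383, blocked 0.122). Plxna1, Plxna2 and Plxna3 had log2 fold changes of -0.03, 0.11 and -0.02. Their 95% intervals, -0.16 to 0.11, -0.03 to 0.25 and -0.15 to 0.11 on the log2 scale, lay within 1.5-fold.

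Of the B plexins, Plxnb1 was nearly identical in the regions, at 521.6, 525.9 and 508.5 CPM in cervical and 534.8, 528.3 and 493.7 CPM in thoracic replicates (95% interval -0.13 to 0.13). Plxnb2 stood at 324.2 ± 2.97 and 341.5 ± 13.5 CPM, without overlap with a small difference (log2 fold change -0.08, edgeR adjusted p = 0.824). Its highest cervical library, at 326.16 CPM, lay just below its lowest thoracic one, at 326.50 CPM. Plxnb3 stood at 1.81 ± 0.202 and 1.87 ± 0.253 CPM, and the ratio of Plxnb1 to it on the CPM per kilobase scale was 157 to 220.01 over the 6 libraries. Plxnc1, the receptor of Sema7a, stood at 87.0, 97.2 and 97.2 against 98.2, 101.4 and 109.7 CPM, also without overlap (log2 fold change -0.14, edgeR adjusted p = 0.666). Plxnd1, known best from blood vessels and from sensory-motor wiring, stood at 7.28, 10.4 and 9.51 CPM in cervical and 10.0, 11.6 and 10.3 CPM in thoracic replicates (log2 fold change -0.23, edgeR adjusted p = 0.797). The 8 endothelial markers were all tested and none was at 0. Their sum was 8.15, 13.1 and 16.1 CPM for cervical and 17.6, 11.8 and 14.0 CPM for thoracic replicates. Their part in the Plxnd1 values was not tested.

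In all, 7 of 31 members (22.6%) had no overlap between the regions, against 13.7% of all tested genes and 14.5% of those with a mean of at least 1 CPM. They were Sema3a and Sema3e toward cervical (6.25% of all genes), and Sema3d, Sema6a, Plxna4, Plxnb2 and Plxnc1 toward thoracic libraries (7.5%). Paired by replicate number, 15 members (48.4%) differed in the same direction in all 3 pairs, against 31.4% of all genes and 32.7% of those with a mean of at least 1 CPM. For several genes the pair numbered 1 showed the smallest difference. In that pair the log2 ratio of cervical to thoracic was 0.06 for Sema3c, -0.03 for Sema6a, -0.04 for Plxna4 and 0.09 for Nrp2. In pairs 2 and 3 it was -0.53 and -0.58 for Sema3c, -0.30 and -0.35 for Sema6a, -0.25 and -0.50 for Plxna4, and -0.24 and -0.25 for Nrp2. A blocked fit without replicate 1, chosen after the data were seen, called 6 members, beside 3.59% of all genes. They were Sema3a, higher in cervical, and Sema3c, Sema3d, Sema6a, Plxna4 and Nrp2, higher in thoracic libraries. The same fit without replicate 2 or without replicate 3 called 0. Each of these fits keeps 2 libraries per region, so its calls lean heavily on a spread shared across genes.

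**Figure D3:**
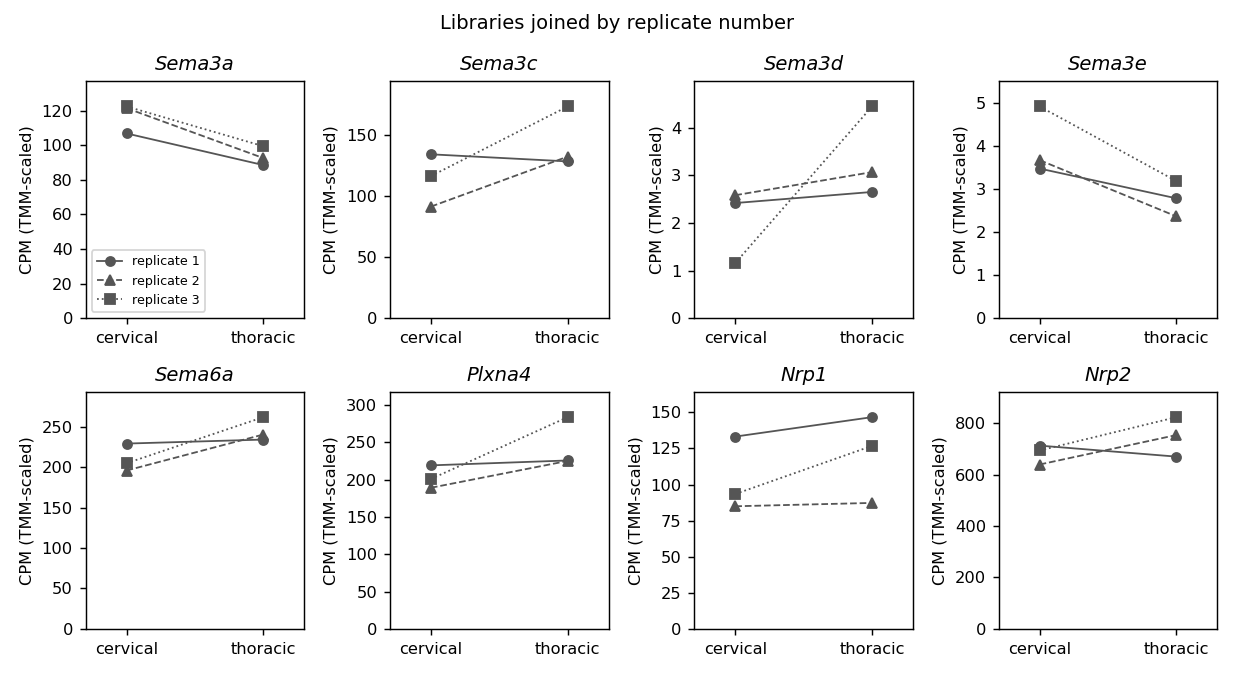
TMM-scaled CPM of 8 genes in cervical and thoracic libraries, with lines that join libraries of the same replicate number (vertical axes start at 0). Sema3a and Sema3e slope down toward thoracic in all 3 pairs, while Sema3c, Sema6a, Plxna4 and Nrp2 change little in replicate 1 and slope up in replicates 2 and 3.

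Of 54 genes listed as partners of the pathway, Met alone passed the edgeR test without the block (1.85%, beside 0.542% of all genes). DESeq2 called 4 of 53 (7.55%, beside 2.49% of the 16432 genes to which it gave an adjusted p). They were Met, Cspg4, Farp1 and Micall2, all higher in thoracic libraries. Met encodes the receptor of hepatocyte growth factor and can join B plexins in a complex. It stood at 34.1, 29.9 and 34.1 CPM in the cervical and 52.7, 49.99 and 73.5 CPM in the thoracic replicates. Every thoracic library was above every cervical one, by 1.79-fold in the fit (log2 fold change -0.84, SE 0.13, edgeR adjusted p = 0.0249, blocked 4.8e-04), and was not called without cervical replicate 2 (0.109) or without cervical replicate 3 (0.109).

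Among the 14 coreceptors and other ligands, 10 had a log2 fold change below 0, beside 10525 of all 21972 tested genes. The blocked fit also called the proteoglycan gene Cspg4, at 2.697, 5.02 and 4.66 CPM in cervical and 5.28, 10.2 and 8.52 CPM in thoracic replicates (log2 fold change -0.95, edgeR adjusted p = 0.262, blocked 0.00796, DESeq2 0.0165). L1cam, an adhesion molecule that acts with Nrp1, had the highest level per kilobase of this list, 80.5, and stood at 577.0 ± 33.6 and 606.4 ± 34.8 CPM. Chl1, its relative, had higher values in every cervical library, 648.7 to 701.4 CPM against 537.3 to 607.0 CPM (log2 fold change 0.20, edgeR adjusted p = 0.365). The second list has 13 genes of collapsin response mediators, Mical and Mical-like proteins and kinases. Some of them, not all, are known to relay semaphorin signals to the cytoskeleton. None of the 13 was called by edgeR with or without the block. DESeq2 called Micall2, a Mical-like gene, at 11.2, 10.97 and 12.3 CPM in cervical and 14.4, 15.9 and 15.7 CPM in thoracic replicates, without overlap (log2 fold change -0.41, edgeR adjusted p = 0.195, blocked 0.112, DESeq2 0.0486). Dpysl2, the most abundant per kilobase at 397, stood at 1746 ± 70.5 and 1844 ± 48.6 CPM.

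The 27 GTPases, regulators and kinases had a median log2 fold change of -0.02 and none called by edgeR without the block. With it, and in DESeq2 without it, Farp1, which acts with A plexins in motor neuron dendrite growth, was called higher in thoracic libraries. It stood at 97.8, 95.6 and 88.6 CPM in cervical and 113.1, 114.2 and 112.1 CPM in thoracic replicates (log2 fold change -0.27, SE 0.06, edgeR adjusted p = 0.0996, blocked 0.0470, DESeq2 0.0191). The thoracic values had an SD of 1.06 CPM and lay above all cervical ones. Cfl1, the actin-severing protein cofilin, led the list per kilobase at 128, and stood at 378.4 ± 51.9 and 347.5 ± 24.9 CPM.

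**Figure D4:**
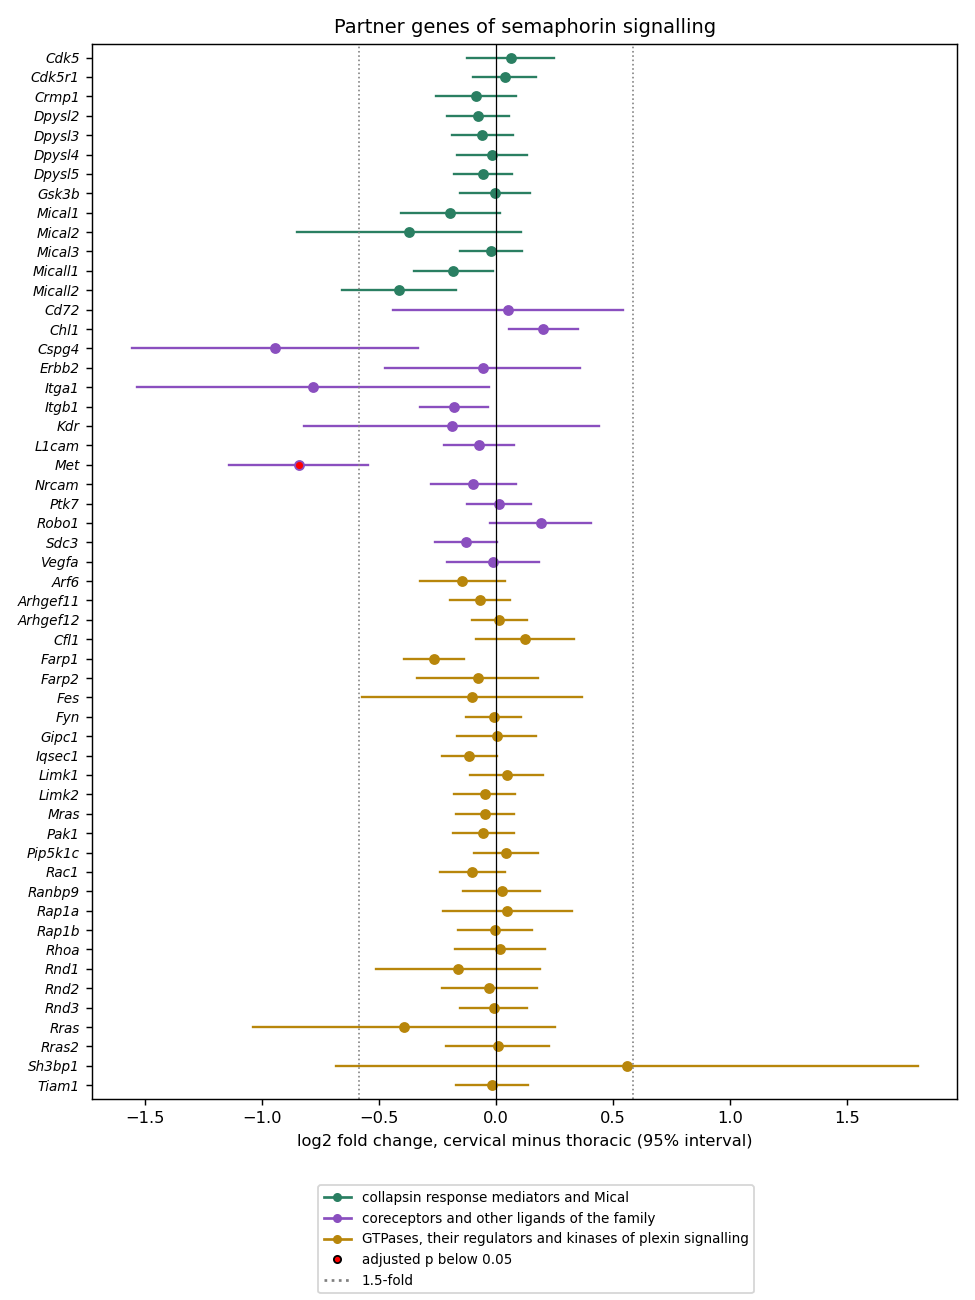
Log2 fold change, cervical minus thoracic, with its 95% interval for the 54 partner genes in 3 lists (colours), from the model with region only; dotted lines mark 1.5-fold. Met is the gene with a red point, at -0.84, and the longest interval is that of Sh3bp1, a gene at 0.344 and 0.236 CPM.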

How the data were processed

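Total RNA of 6 libraries was depleted of ribosomal RNA and made into stranded libraries from 10 to 20 ng with 15 PCR cycles, per the labels' protocols. The authors deposited unnormalized read counts for each gene, with mm39 coordinates and merged exon lengths per the file headers. The submitters' processing notes name FastQC 0.11.9, STAR 2.7.5b and featureCounts 2.0.1. The annotation release and strand setting were not given in the sources used here. Reads of overlapping genes can therefore be mixed or left out, and the counts cannot show how many. For no member did an overlapping gene have more than 3.14% of its mean count (Gm26811 with Plxna1). The largest shares of a member's exonic bases that lay in an overlapping gene were 15.4% for Plxna2, 10.7% for Plxna1 and 7.27% for Sema4c.

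Counts were filtered with edgeR 4.0.16 in R 4.3.3 (minimum count 10), which kept 21972 genes and removed 0.117% of counts. TMM factors were 0.989 to 1.01, and the quasi-likelihood model held region alone. A positive log2 fold change (prior count 0.125) means higher in cervical libraries. P-values were adjusted by Benjamini-Hochberg over all tested genes, and 0.05 was the threshold. The fit was tested on simulated data. Replicate numbers were taken from the sample titles. Deviations from region means correlated at 0.163, 0.160 and 0.195 between libraries of the same number. Between libraries of different numbers the correlations ran from -0.179 to 0.00834. Centring on region means tends to make these negative when same-number correlations are positive, so they are not separate evidence of pairing. The series' design states no block, so the main fit had none. The numbers were taken to pair the samples in the blocked fits and in comparisons by pair. Libraries of 1 region differed with a chi-square of 10.1 to 16.2 per degree of freedom, above counting noise, and each library counted as 1 sample. DESeq2 1.42.0, limma-voom (limma 3.58.1), other scalings and filters, the block and leaving out each library were tried.

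All members, the genes called in partner lists in either model and the most abundant gene of each partner list were named. Members and lists were chosen with earlier results of these data known. Chl1, Micall2, Sh3bp1 and the 8 genes plotted by pair were picked after their values were seen. Of 11 marker lists, skeletal muscle (1.72 to 2.90 CPM), erythroid (7.27 to 23.0), macrophage (4.32 to 14.8), dorsal root ganglion (59.1 to 103.9), mesenchyme (20.7 to 217) and Schwann and neural crest (357 to 514) sums are not used further.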

Additional observations from a re-analysis of the deposited data

How the results depend on the processing

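The count of all called genes was 119 and moved to 747 with no filter on low counts, 409 with DESeq2 and 432 with the replicate block, and ran from 9 to 159 when 1 library was left out. Members called numbered 0, and 3 (Sema3a, Sema3c and Plxna4) with no filter, 1 with DESeq2, 1 with the replicate block and 0 to 1 without 1 library. Partner genes called numbered 1, and 4 with no filter, 4 with DESeq2, 3 with the replicate block and 0 to 1 without 1 library. The blocked fit without replicates 1, 2 and 3 in turn was added after the data were seen, with 2 libraries per region left. It called 798, 184 and 283 genes in all, 6, 0 and 0 members, and 5, 1 and 2 partner genes. The causes were not tested. The block changed no other member's call. Other scalings, limma-voom and a mean of at least 1 CPM left the member and partner counts as they were. Of the 31 members, 21 kept the sign of their log2 fold change in every setting, and the other 10 had main values of at most 0.13 in size. Leaving out 1 library, these ran from -0.133 to 0.139 for Sema3g, -0.0166 to 0.0538 for Sema4c, -0.124 to 0.0348 for Sema4d, -0.0138 to 0.0847 for Sema4g, -0.105 to 0.0789 for Sema5a, -0.0613 to 0.0410 for Sema7a, -0.0472 to 0.00415 for Plxna3, -0.0353 to 0.0177 for Plxnb1 and -0.138 to 0.0570 for Plxnb3. Plxnb1 was 0.000746 with library totals only and 0.000523 at a mean of at least 1 CPM. With the replicate block and 1 number left out, the sign turned at 0.00450 and 0.0824 for Sema3g, -0.00873 for Sema4a, -0.0304 and -0.00231 for Sema4c, 0.0219 and 0.0509 for Sema4d, -0.0403 for Sema4g, 0.0853 and 0.0222 for Sema5a, 0.0188 and 0.0461 for Sema7a, 0.0170 for Plxna3, 0.0182 and 0.00526 for Plxnb1 and 0.108 for Plxnb3. Of the 10 members highest per kilobase, 9 were also among the 10 highest with no length correction. Low counts limit Sema3d, Sema3e, Sema3g and Plxnb3, whose lowest counts in a library were 37, 77, 50 and 53.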
